A study of Mus musculus with 18 samples.

Results

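Cytosolic ribosomal protein genes were followed in T cells isolated from mouse melanomas, with and without the nuclear receptor NR2F6 and with and without blockade of PD-L1. The genes were chosen by symbol: rows named Rpl or Rps followed by a number (with an optional final a, x or l), plus Rpsa, Rplp0, Rplp1 and Rplp2, whose normalized count averaged 10 or more over the libraries. Of 37236 genes in the table, 80 carried such a symbol and 77 passed the mean, 31 of the small and 46 of the large ribosomal subunit. The 3 that did not pass were Rpl24 (mean 5.23 normalized counts), Rpl3l (0.153) and Rpl10l (0.0985). Rpl24 encodes a large subunit protein, while Rpl3l and Rpl10l are tissue-restricted copies of Rpl3 and Rpl10. Of the last 300 bases of the annotated Rpl24 transcript, 58.3% overlapped the gene Gm28037 on the same strand. These bases shared 81.3% of their stretches of 50 bases with transcripts of 9 other genes. The level of Rpl24 is thus uncertain, and the part of this in its low count was not tested.

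CD3+ tumor-infiltrating T cells (TILs) were sorted from mice carrying subcutaneous B16-OVA tumors, a mouse melanoma line that expresses ovalbumin, and their RNA was read as 3′ tags in 18 libraries. All mice were of the C57BL/6 background, received 500000 tumor cells and were sampled at day 14. Wild-type and Nr2f6-/- mice were given either the antibody 10F.9G2 against PD-L1 or an IgG2b control antibody, 0.5 mg per injection from day 3. The 4 groups were wild type with IgG2b (n = 3), Nr2f6-/- with IgG2b (n = 3), wild type with anti-PD-L1 (n = 6) and Nr2f6-/- with anti-PD-L1 (n = 6). Nr2f6 was missing from every cell of the Nr2f6-/- mice and not from T cells alone. Libraries numbered 28 to 39 made up a first set, which held replicates 1 to 3 of each group. Libraries 43 to 48 made up a second set, which held only anti-PD-L1 samples, as replicates 4 to 6. What else differed between the library sets, such as the day of the experiment, was not given in the sources used here. A normalized count below is the number of reads on a gene divided by the size factor of its library. All differences are on the scale of log2(normalized count + 1), and the test was limma across the 11992 genes past that mean, with Benjamini-Hochberg adjusted p-values and a threshold of 0.05.

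The ribosome is built from a small subunit, which reads the mRNA, and a large subunit, which joins amino acids. Its proteins are made in similar amounts, and most of their mRNAs are transcribed from a C and begin with a run of pyrimidines, the 5′ terminal oligopyrimidine (TOP) motif, through which the kinase mTORC1 and the protein LARP1 set their translation. In T cells, activation and growth are accompanied by the production of new ribosomes.

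Sequence around the annotated starts of transcription is shown for those members with a RefSeq window whose genotype difference under anti-PD-L1, or whose change of that difference between library sets, had the lowest p-values, and for the 4 with the smallest genotype difference. Each line runs 5′ to 3′ from 10 bases before the start to 20 bases from it onward, so that the eleventh base is the start. Capitals mark the longest run of C and T in the window. Where several runs were equally long, as in Rpl22, Rpl37 and Rps3, only the first is marked. The windows come from RefSeq (build GRCm38.p6).
Rps15 (chr10:80292421-80292450, plus strand): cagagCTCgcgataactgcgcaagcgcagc
Rpl37 (chr15:5116603-5116632, plus strand): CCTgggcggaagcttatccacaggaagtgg
Rpsa (chr9:120127756-120127785, plus strand): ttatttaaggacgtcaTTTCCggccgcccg
Rps12 (chr10:23787190-23787219, minus strand): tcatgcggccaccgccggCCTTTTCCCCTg
Rpl35 (chr2:39005112-39005141, minus strand): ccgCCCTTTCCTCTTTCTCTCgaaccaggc
Rps23 (chr13:90923112-90923141, plus strand): cggctgggcggggCTTCCCgcaatgccttg
Rpl39 (chrX:37085203-37085232, minus strand): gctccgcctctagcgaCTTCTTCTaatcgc
The 4 members with the smallest genotype difference follow.
Rpl22 (chr4:152324426-152324455, plus strand): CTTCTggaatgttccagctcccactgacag
Rps3 (chr7:99483690-99483719, minus strand): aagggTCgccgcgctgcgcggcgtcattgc
Rpl27 (chr11:101442235-101442264, plus strand): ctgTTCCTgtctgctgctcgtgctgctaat
Rpl15 (chr14:18270967-18270996, minus strand): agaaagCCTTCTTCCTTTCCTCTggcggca

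The longest runs shown belonged to Rpl35 (18 bases), which was among the most different members, and to Rpl15 (17 bases), which was among the least different. Of 77 members, 57 had a RefSeq window, 68 windows in all. A start on a C with at least 5 pyrimidines in a row was found in 13 of the 68 windows (19.12%), against 2.51% of 32851 windows of all genes. A run of at least 8 bases of C and T within 10 bases of the start was found in 29 (42.65%), against 14.02%. Members with such a run (28) and without (29) had medians of −0.29 and −0.28 for the genotype difference under anti-PD-L1, on the log2 scale. The annotated start can lie away from the start used in a cell, by more than a few bases. In another annotation (GENCODE), each of the genes shown begins outside its window. Rps15 begins there at 80292453, just past its window, Rpl22 at 152325742 and Rpl35 at 39005624. The sequences shown need not be the ends of the mRNAs, and a window without a run says only that these letters are not in it.

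The members were among the most abundant transcripts of the TILs. Between 10.25% and 17.78% of all reads of a library fell on them, with a 95% exact binomial interval of at most ±0.018 percentage points, which covers counting error only. The total number of reads per library was 12473391 to 18609482. The level of a member, as its mean over 18 libraries, had a median of 23305 normalized counts. It lay above 50000 for 10 members, between 10000 and 50000 for 53 and below 10000 for 14. Since each transcript gives tags from its 3′ end only, these levels need no division by length, but they depend on how the last bases of a transcript map to the genome.

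**Figure D1:**
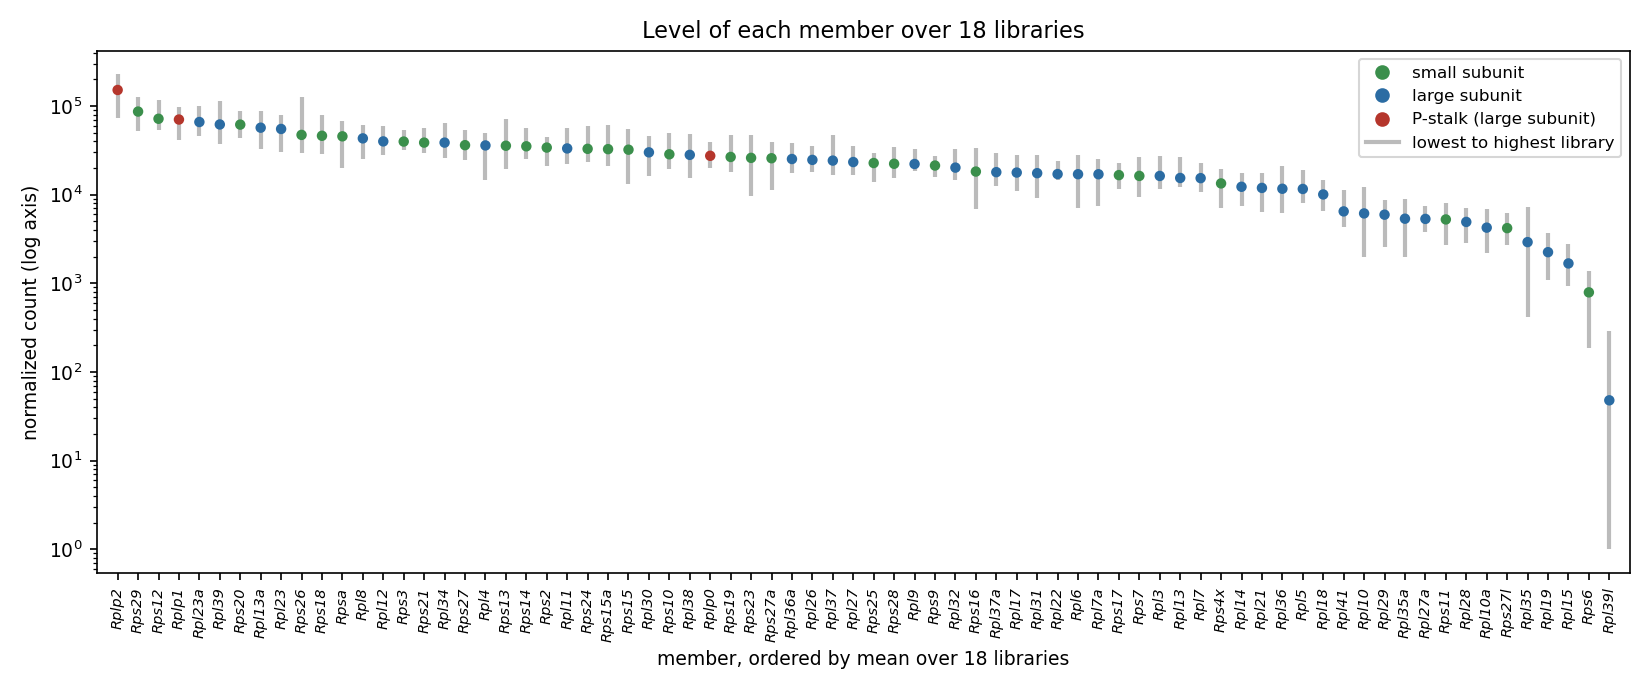
Mean normalized count over 18 libraries (points, log axis) and the range from the lowest to the highest library (bars, drawn from 1 where a library was at 0) for 74 members, ordered by mean. Rplp2 had the highest mean, 151444, and Rpl39l the lowest, 47.8.

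The highest member was Rplp2, an acidic protein of the P-stalk, the lateral arm of the large subunit that recruits translation factors. Its mean was 151444 normalized counts and its range 73959 to 226502. It was followed by Rps29 (86474), Rps12 (71705), and its partner in the stalk Rplp1 (70315). Each neighbouring pair in this order had overlapping ranges over the libraries. Rplp0, the base of the stalk, was lower, with a mean of 27399 and a range of 19750 to 39200.

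The lowest member was Rpl39l, a copy of Rpl39 known from the testis, at 0 in 4 of 18 libraries and at most at 286.5 normalized counts. Next came Rps6 (789.7), Rpl15 (1674), Rpl19 (2243) and Rpl35 (2913). Rps6 encodes the small subunit protein that S6 kinase phosphorylates. The last 300 bases of its annotated transcript shared 83.3% of their stretches of 50 bases with transcripts of 11 other genes. For Rpl35 the share was 96% with 8 genes, but for Rpl15 it was 0. Over the members the share had a median of 52.2%, and it ranked with the level with a Spearman correlation of −0.09, as a description across 77 genes. Of a read that mapped to several places, only the primary alignment was kept in the authors' counting, so the level of a member with copies is uncertain.

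Members also differed in how steady they were between libraries of a group. The SD of the log2 value within groups was taken over both library sets together. It had a median of 0.34 over members, against 0.36 over the 2767 genes with a mean of at least 1000. It was smallest for Rps3 (0.18), which lines the entry channel of the mRNA, for Rpl22 (0.18) and for Rpl9 (0.21). It was largest, among members with a mean of at least 200, for Rpl35 (0.97), Rpl10 (0.76) and Rps6 (0.76). Over all 18 libraries Rps3 lay between 31553 and 53398 normalized counts, whereas Rpl35 lay between 415.5 and 7291.

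The members moved together between libraries of the same group. After subtraction of the group means, the median correlation between pairs of 76 members (without Rpl39l) was 0.56 over 18 libraries, and 92.11% of 2850 pairs were positive, while the median over pairs of all 7050 genes with a mean of at least 200 was 0.00. This is a description: the points share libraries and size factors. The group means were taken over both library sets, so a difference between sets stays in these correlations. In Nr2f6-/- with anti-PD-L1 the mean log2 value of the members was 13.55 to 13.73 in the first and 14.21 to 14.33 in the second set. The 7050 genes also include levels far below those of most members. Rpl13a (r = 0.96), Rpl30 (0.94) and Rps29 (0.94) followed the mean of the other members most closely. Rpl13 (−0.28), Rps26 (−0.11) and Rps19 (−0.02) did not follow it. Among genes that are no members, those most like the mean of the members were Actg1 (0.93), Tpt1 (0.92), Psmb3 (0.91), Cox7c (0.91) and Psmb6 (0.91). Of these Tpt1, the translationally controlled tumor protein, has a known TOP mRNA.

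Before the groups are compared, the labels were checked. Nr2f6 itself was listed at 0 in all 9 Nr2f6-/- libraries and at 20.2 to 200.8 normalized counts in the 9 wild-type ones. All 8 T cell markers were above 0 in every library. Markers of macrophages were highest in the IgG2b groups, with a summed level of 9288 to 19827 normalized counts for 12 genes, against 847.1 to 6895 with anti-PD-L1. Transcripts of melanocytes were seen at a sum of 736.2 to 7149. In such bulk samples, fewer cells of a type and less RNA per cell cannot be told apart.

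In wild-type mice with IgG2b, the members took 13.01% to 14.61% of the reads. In Nr2f6-/- mice with IgG2b they took 12.8%, 11.66% and 12.6%, all below the wild-type values. With anti-PD-L1, the first 3 wild-type libraries stood at 13.22%, 17.78% and 15.39% and the second 3 at 16.29%, 15.51% and 14.52%. The first 3 Nr2f6-/- libraries with anti-PD-L1 were at 11.34%, 10.25% and 11.62%, the lowest of the series. The second 3, at 14.35%, 14.99% and 15.23%, lay within the range of the wild type. The mean per group was 13.87% ± 0.807 (SD, n = 3) and 12.35% ± 0.609 (SD, n = 3) with IgG2b, for wild type and Nr2f6-/-, and 15.45% ± 1.55 (SD, n = 6) and 12.96% ± 2.14 (SD, n = 6) with anti-PD-L1. No test was made of this share, since it is a sum over members chosen as a group.

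**Figure D2:**
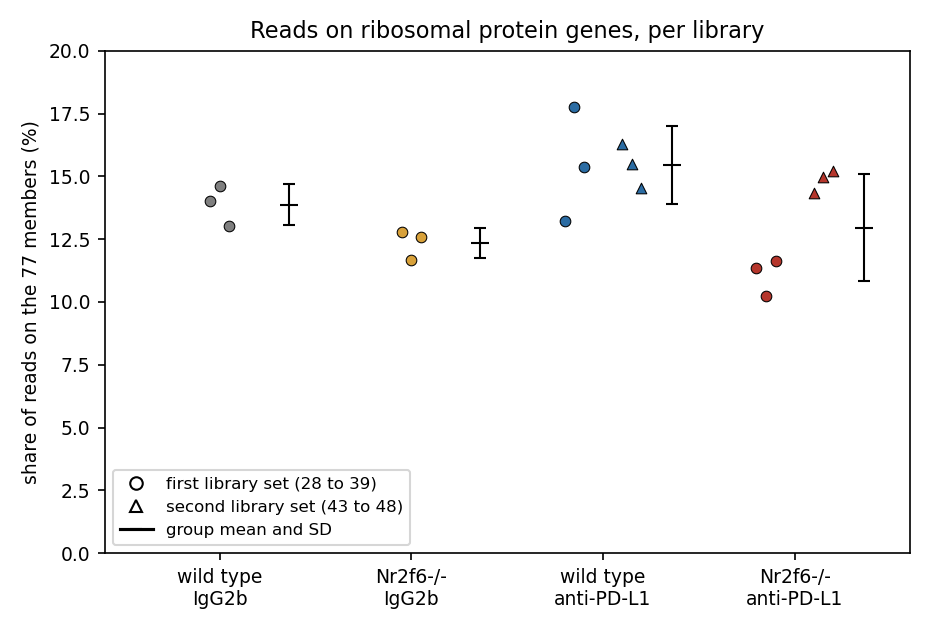
Share of reads on the 77 members in each library (vertical axis, percent), by group, with circles for the first and triangles for the second library set and the group mean and SD at the right of each group. The 3 first-set Nr2f6-/- libraries with anti-PD-L1, at 10.25% to 11.62%, lie below all other libraries, and the 3 of the second set at 14.35% to 15.23%.

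The first question was whether loss of Nr2f6 changed the members under PD-L1 blockade. Most of them had lower values in Nr2f6-/- TILs, and no single gene passed the threshold. The difference was below 0 in 73 of 77 members (94.81%), while this was so in 50.3% of all genes tested, and its median was −0.31 (all genes: 0.00). No member passed the adjusted threshold by limma, edgeR or DESeq2. Of all genes 0.175% passed by limma, and 22 and 184 of 11992 passed by edgeR and DESeq2. At an unadjusted p under 0.05 there were 28 members, all of them lower (36.36%, against 5.07% of all genes). The counts at that unadjusted p were 19 by edgeR and 23 by DESeq2, all lower. Of 11992 genes, 666 and 717 were lower at that p. By limma the count was 12 with only the groups compared, and 6 to 38 with 1 library left out at a time. It was 6 and 8 without Nr2f6-/- replicates 2 and 1, 8 without wild-type replicate 2 and 11 without Nr2f6-/- replicate 3. With 1 library left out, 65 to 75 members were below 0. Where replicate 5 of Nr2f6-/- was left out, 37 members were lower at that p, as were 627 of 11992 genes. The other refits are given without the count over all genes, so they show only how far the number of members varied. Both subunits took part, with medians of −0.30 for 31 small and −0.33 for 46 large subunit members.

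Rps15, of the small subunit, was at 19571, 52280 and 47178 normalized counts in the first-set wild-type libraries with anti-PD-L1 and at 55244, 48677 and 38730 in the second. In Nr2f6-/- it was at 16244, 13231 and 19096 in the first set and at 43832, 28081 and 43076 in the second. The first-set Nr2f6-/- libraries were below every wild-type library, and 2 of the second set lay above the lowest wild-type value of that set, 38730. The largest differences by size were those of Rpl39l (−1.34, SE 1.499), Rpl35 (−1.08, SE 0.41) and Rps15 (−0.76, SE 0.25), with adjusted p-values of 0.823, 0.363 and 0.278. The members with a difference above 0 included Rpl4 (0.11, SE 0.20), Rps26 (0.10, SE 0.22) and Rpl22 (0.01).

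The genotype difference was then taken within each library set. In the first set, 75 of 77 members were lower in Nr2f6-/- TILs (97.4%, against 47.9% of all genes), with a median of −0.64, and 52 had an unadjusted p under 0.05, all lower (67.5%, against 5.7%). The values of the 3 Nr2f6-/- and 3 wild-type libraries did not overlap in 37 members (48.1%), each lower in Nr2f6-/-, against 6.8% of all genes. By limma fitted on the 12 first-set libraries, 4 of 77 members passed the adjusted threshold (background 0.284%), among them Rpl35, Rpsa and Rpl17, each lower. In the second set, 47 members were higher and 30 lower (61.0% higher, against 48.4% of all genes), with a median of 0.03. No member passed the adjusted threshold there by limma (all genes: 0%; other tools were not run on this set), 0 had an unadjusted p under 0.05 (all genes: 6.3%), and 4 did not overlap in the upper and 3 in the lower direction (5.19% and 3.9%, against 5.5% and 5.56%).

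**Figure D3:**
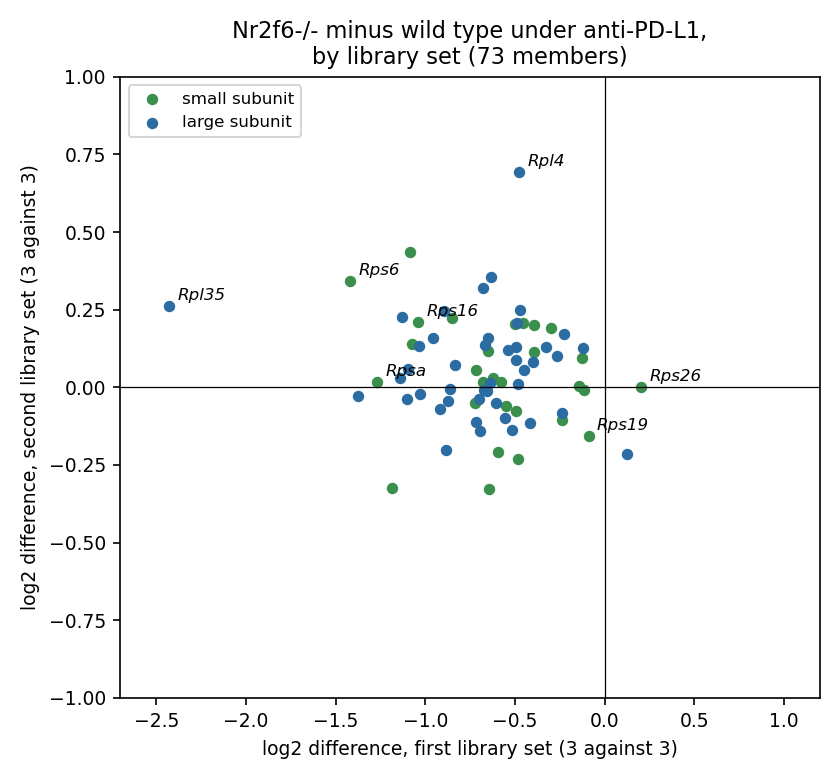
Log2 difference Nr2f6-/- minus wild type under anti-PD-L1 in the first library set (horizontal) and in the second (vertical), 3 against 3 libraries each, 1 point for each of 73 members, without Rpl39l. Nearly all points lie left of 0 on the horizontal axis, and scatter around 0 on the vertical axis, with medians over all 77 members of −0.64 and 0.03.

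Which test was used changed how many members were called in the first set. DESeq2 called 37 (all genes: 2.83%), edgeR 14 (0.434%) and limma after quantile normalization 15 (0.525%), each of them lower. With limma fitted on the anti-PD-L1 libraries alone there were 0 adjusted calls and 35 at an unadjusted p under 0.05. The share of all genes in that fit is not given beside these counts. Without wild-type replicate 1, whose share of 13.22% was the lowest of its group, 27 members were called (all genes: 0.817%). Without wild-type replicate 2, whose share of 17.78% was the highest of the series, 1 was called (all genes: 7 of 11992), with a median of −0.46. Rpl35, Rpsa and Rpl17 were then not past the threshold. With Nr2f6-/- replicates 1, 2 and 3 left out in turn there were 2, 1 and 1 calls, against 5, 10 and 3 of 11992 genes.

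Rpsa, the laminin receptor protein of the small subunit, showed the contrast of the sets. Its wild-type values with anti-PD-L1 were 45111, 64665 and 67167 normalized counts in the first set and 62982, 58478 and 55206 in the second. In Nr2f6-/- TILs they were 24396, 20110 and 28458, then 56386, 64600 and 57895. The first 3 Nr2f6-/- values lay below all others with anti-PD-L1, and the second 3 within the wild-type range. The difference was −1.27 (SE 0.20, adjusted p = 0.0147 by limma) in the first and 0.02 (SE 0.13, adjusted p = 0.990) in the second set. The first-set fit used the 12 libraries of all 4 groups, and the second-set fit only the 6 anti-PD-L1 libraries. The 2 p-values are thus from unlike fits. Fitted by limma on the first-set anti-PD-L1 libraries alone, 0 members passed the adjusted threshold. The same holds for Rpl35 and Rpl17 below.

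Rpl35, of the large subunit at the exit of the peptide tunnel, had the widest change. Its wild-type values were 2334, 2968 and 7291 in the first set and 2388, 4095 and 3844 in the second. Its Nr2f6-/- values were 1131, 688.5 and 415.5, then 3059, 4304 and 4922. The groups did not overlap in the first set and did in the second. The first-set difference was −2.43 (SE 0.39, adjusted p = 0.0147 by limma) and the second-set difference 0.26 (SE 0.28, adjusted p = 0.827).

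Rpl17 (−0.96, SE 0.17, adjusted p = 0.0219 by limma in the first set, and 0.16, SE 0.15, in the second) had the same order of values. Rps6 was at 566, 1197 and 797.7 in the first 3 wild-type and at 186, 528.8 and 284.3 in the first 3 Nr2f6-/- libraries, which did not overlap. In the second set it was at 745.1, 760.7 and 1227 in wild type and at 943.9, 1102 and 1359 in Nr2f6-/-, and here the groups overlapped. Its first-set difference of −1.42 (SE 0.43) had an adjusted p of 0.195. Of the P-stalk, Rplp1 (−0.67, SE 0.20) and Rplp2 (−0.88, SE 0.25) were lower by more than Rplp0 (−0.32, SE 0.22) in the first set, with adjusted p-values of 0.181, 0.169 and 0.644.

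**Figure D4:**
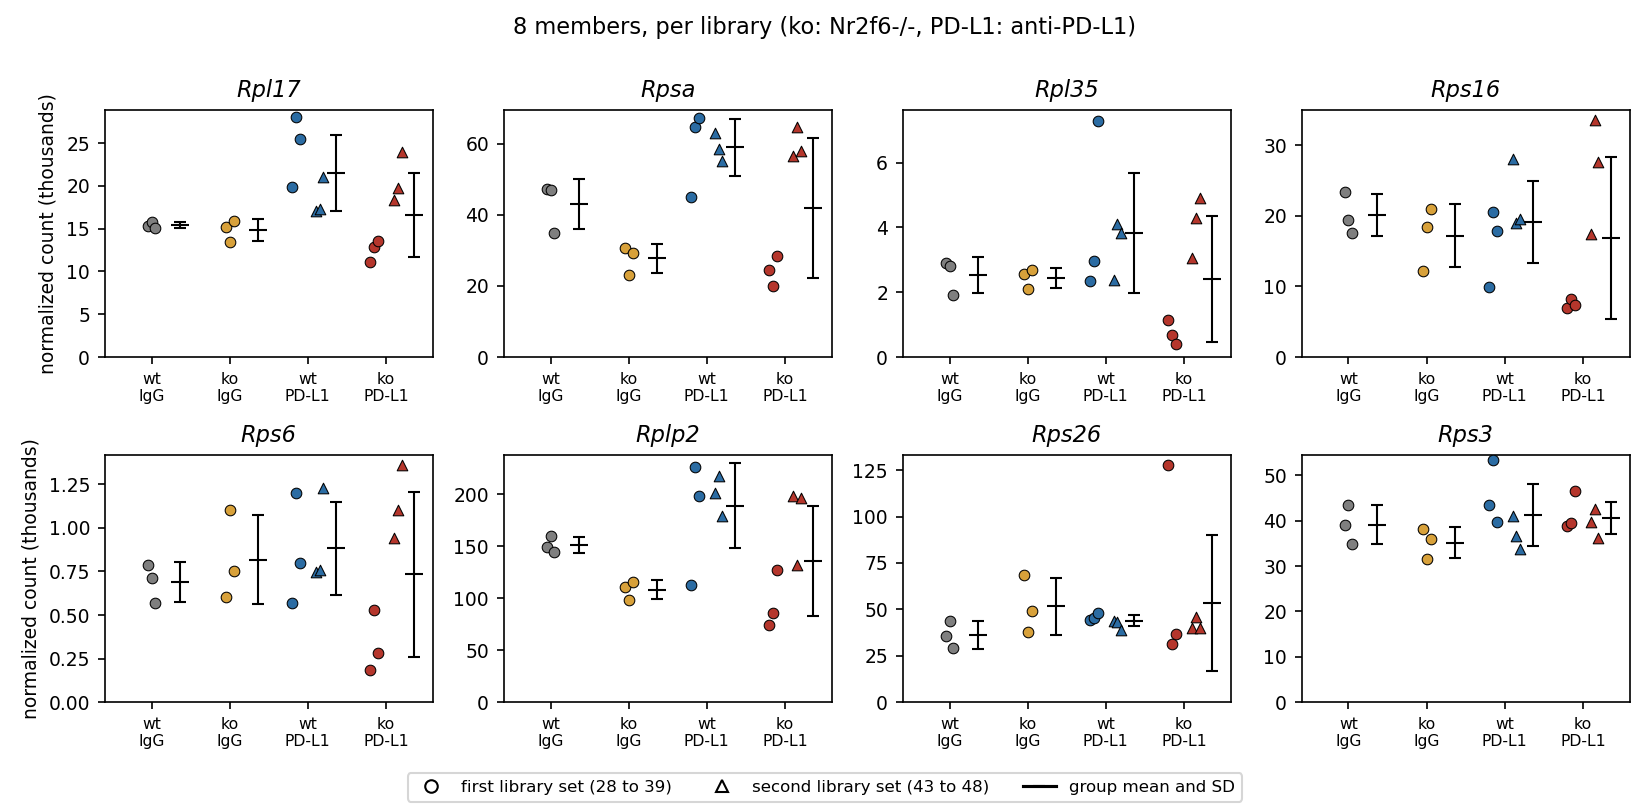
Normalized counts (vertical axes, in units of 1000) of 8 members in each library, by group (wt, wild type, ko, Nr2f6-/-), with circles for the first and triangles for the second library set and the group mean and SD at the right. In Rpl17, Rpsa, Rpl35, Rps16 and Rps6 the 3 first-set Nr2f6-/- libraries with anti-PD-L1 lie below all other anti-PD-L1 libraries, while the groups overlap in Rps3 and Rps26 has 1 library at 127660.

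Some members did not show this pattern. Rps3 was at 43506, 53398 and 39739 in the first 3 wild-type libraries with anti-PD-L1 and at 38777, 39437 and 46515 in the first 3 Nr2f6-/- ones, which overlapped. Rps26, at the exit of the mRNA, was at 31476 and 36533 in Nr2f6-/- replicates 2 and 3 and at 127660 in replicate 1, where it alone took 0.863% of the reads. In the other 17 libraries it took 0.204% to 0.438%. In that replicate the reads on the small subunit exceeded those on the large one, with a ratio of 1.13, while the ratio lay between 0.834 and 0.945 in all others. Without Rps26 the ratio of the replicate was 0.965, still the highest, beside 0.802 to 0.89 in the others.

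Some other values moved with the genotypes in the first set while others overlapped, and their part in the result was not tested. Mitochondrially encoded transcripts took 6.91% to 8.9% of the reads in the first 3 wild-type libraries with anti-PD-L1 and 4.47% to 4.85% in the first 3 Nr2f6-/- ones. In the second set the order was the other way, 3.14% to 4.27% in wild type and 4.8% to 7.06% in Nr2f6-/-. The 10 highest genes of each library were summed with members not left out, so the sum can hold part of the members' own reads. In the first set it took 12.31% to 14.88% of the reads in wild type and 10.27% to 11.26% in Nr2f6-/-. This order also turned in the second set, with 9.866% to 10.14% in wild type and 11.55% to 13.37% in Nr2f6-/-. The number of genes with at least 1 read was 11107 to 12813 in wild type and 12226 to 12706 in Nr2f6-/- in the first set, with overlap. The summed T cell markers overlapped between the genotypes in the first set (51155 to 74360 against 67040 to 78281), as did the macrophage markers (1582 to 4273 against 1086 to 2695) and the melanocyte markers (2026 to 4566 against 825.7 to 4371). In the second set the T cell sum was higher in each Nr2f6-/- library (69676 to 85531) than in each wild-type one (49351 to 59650), and the macrophage sum lower (847.1 to 1922 against 2013 to 6895). No marker of T cells, macrophages or melanocytes was at 0 in all libraries. The erythroid sum of 4 globin genes was 10818 in wild-type replicate 5 with anti-PD-L1 and at most 2039 elsewhere, and 1 of 5 B cell markers (Cd79a) and 1 of 4 platelet markers (Gp9) was at 0 in every library.

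The comparison of the library sets asked whether the members differed between libraries 43 to 48 and 28 to 39 of the same treatment. Over both genotypes, with genotype as a term, 59 of 77 members were higher in the second set (76.62%, against 49% of all genes), with a median of 0.23. By limma 0 passed the adjusted threshold (all genes: 0%), and 28 had an unadjusted p under 0.05, of which 27 were higher (35.06%, against 4.71%) and Rpl13 was lower. By edgeR 0 passed and by DESeq2 8 did (Rpl10a, Rpl3, Rpl31, Rpl38, Rpl6, Rpl8, Rps15 and Rps16), each higher, against 1.13% of all genes. The largest increases were Rpl35 (1.202, SE 0.43), Rpl10 (1.15, SE 0.27) and Rps16 (1.13, SE 0.24), with adjusted p-values of 0.370, 0.177 and 0.147 by limma. The largest decreases were Rpl39l (−2.35, SE 1.61), Rpl13 (−0.40, SE 0.15) and Rps19 (−0.32, SE 0.18).

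The genotypes were then taken apart. In Nr2f6-/- libraries, 71 of 77 members were higher in the second set (92.2%, against 47.5% of all genes), with a median of 0.55, and the 3 later values lay above the 3 earlier ones in 55 members (71.4%, against 8% of all genes). In wild type, 2 of 77 members had an unadjusted p under 0.05 (all genes: 5.17%), the median was −0.07, and the sets did not overlap in 3 members that were higher and 6 that were lower (3.9% and 7.79%, against 4.96% and 5.25%). Rps16, in the head of the small subunit, was at 6940, 8150 and 7322 in the first and 17397, 33583 and 27581 in the second Nr2f6-/- set, without overlap. In wild type it was at 9868, 20512 and 17841, then at 28016, 18991 and 19551, with overlap. Within Nr2f6-/- alone no member passed the adjusted threshold by limma, with 51 at an unadjusted p under 0.05 (all higher, 66.2%, against 5.62%; adjusted over all genes: 0%), and the lowest adjusted p was 0.0983 (Rps27a).

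The difference between these set differences was tested itself, with an interaction of genotype and set over the 12 anti-PD-L1 libraries, a test added after the data were seen. It was above 0 in 74 of 77 members (96.1%, against 47.5% of all genes), with a median of 0.66, and 39 had an unadjusted p under 0.05, all above 0 (50.65%, against 3.45%). No member passed the adjusted threshold by limma or edgeR (all genes by limma: 0%), and the lowest adjusted p by limma was 0.293 (Rpsa, 1.29, SE 0.27). By edgeR 47 members had an unadjusted p under 0.05, a count given without its share of all genes. The largest values were those of Rpl35 (2.69, SE 0.58), Rps6 (1.76, SE 0.60) and Rps23 (1.52, SE 0.39), with adjusted p-values of 0.346, 0.666 and 0.505 by limma. The lowest were those of Rpl15 (−0.34, SE 0.37), Rps26 (−0.20, SE 0.50) and Rps19 (−0.07, SE 0.36). DESeq2 called 12 members, each above 0, against 1.12% of all genes, and limma without wild-type replicate 1 called 5 (Rpl36, Rpl39, Rps27a, Rps29 and Rpsa, against 0.0751%). The library set and all that changed with it cannot be told apart.

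**Figure D5:**
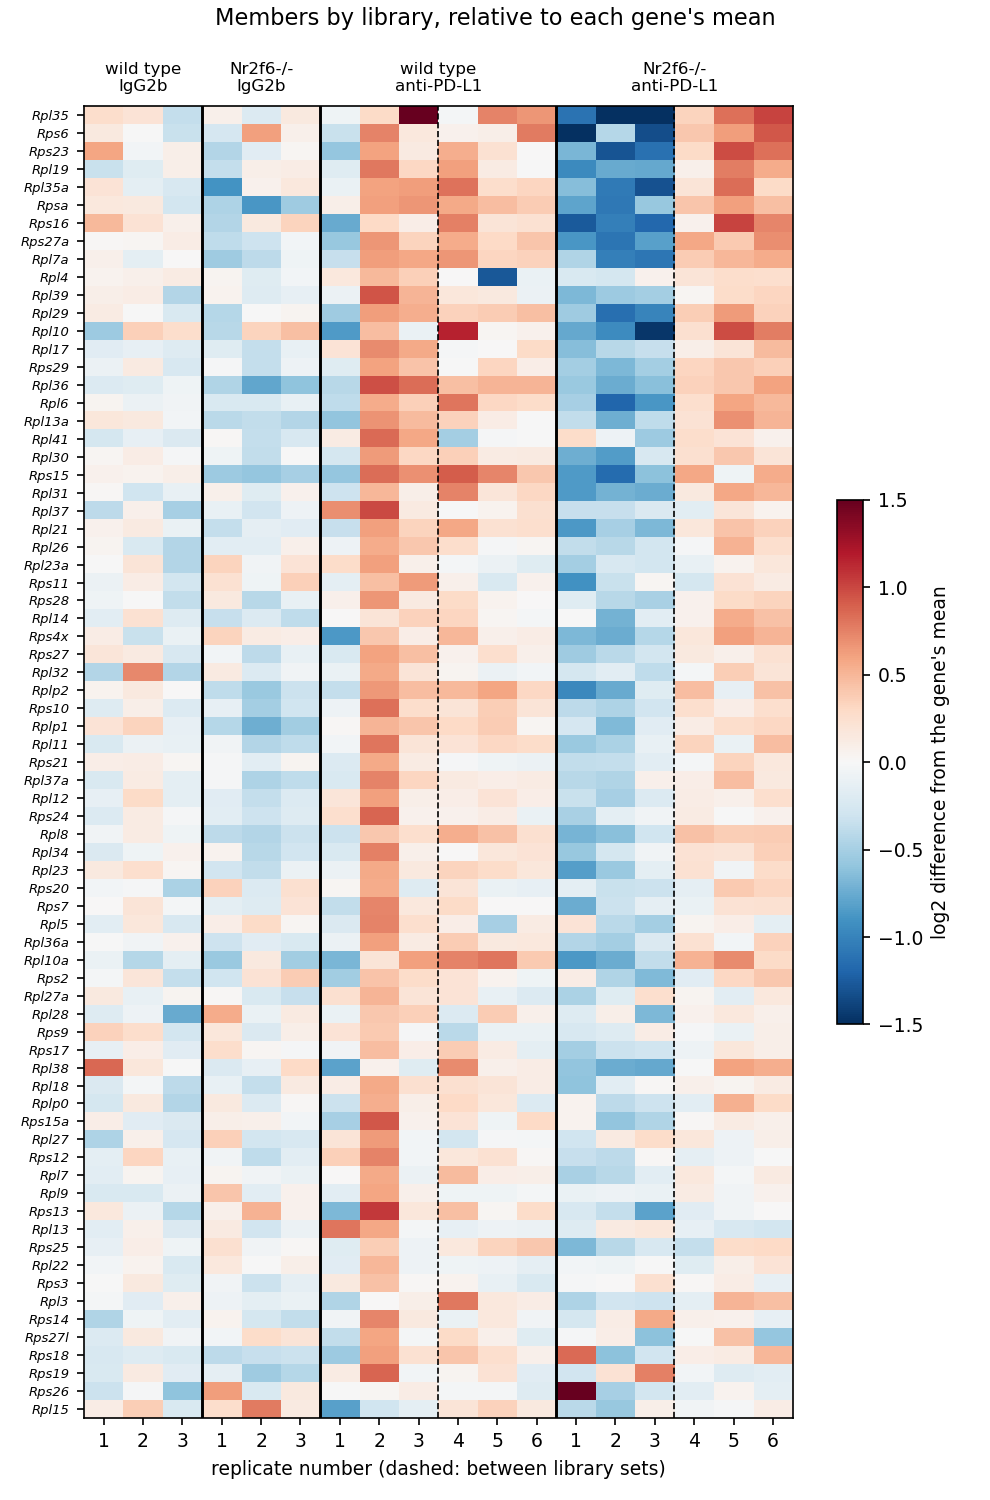
Log2 normalized count of 73 members (rows, without Rpl39l) in 18 libraries (columns), as the difference from each gene's mean, ordered by the change of the genotype difference between library sets. Values beyond the ends of the colour bar take its end colours. Blue fills the columns of Nr2f6-/- replicates 1 to 3 with anti-PD-L1 in the upper rows, red the columns of replicates 4 to 6, and the lowest rows (Rps19, Rps26, Rpl15) lack the pattern.

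With the control antibody, the genotypes were compared over 3 against 3 libraries, all of the first set. The members were spread around 0: 45 were lower and 32 higher in Nr2f6-/- TILs (58.44% lower, against 54.1% of all genes), with a median of −0.10 (all genes: −0.06). By limma 0 members passed the adjusted threshold (all genes: 0%), and 1 higher and 1 lower had an unadjusted p under 0.05 (2.6%, against 5.35%). By edgeR and DESeq2 0 passed as well, against 0 and 88 of 11992 genes. At that unadjusted p each had 2 members, against 602 and 776 of 11992 genes. The genotypes did not overlap in 16 members (20.8%), each lower in Nr2f6-/-, against 8.07% of all genes. Among them was Rplp1, at 78696, 85585 and 62690 normalized counts in wild type and at 50583, 41100 and 47478 in Nr2f6-/-, without overlap. Its difference was −0.70 (SE 0.23), with an adjusted p of 0.781 by limma fitted across all genes. Rplp2 was at 149469, 159970 and 144104 in wild type and at 110714, 98151 and 115509 in Nr2f6-/-, again without overlap. The other large differences were Rpl39l (−1.34, SE 2.12) and Rpsa (−0.63, SE 0.31) on the lower and Rpl28 (0.54, SE 0.25) and Rps26 (0.49, SE 0.32) on the higher side. Markers of other cells moved with these groups, and their part in the members' values was not tested. The macrophage sum was 15763 to 19827 normalized counts in wild type and 9288 to 12945 in Nr2f6-/- (11 of 12 genes below 0, median −0.78), and the platelet sum 2300 to 2611 against 267.6 to 703. The T cell sum was 45595 to 52759 against 55931 to 62851, so that none of these ranges overlapped. All 6 melanocyte markers were below 0, with a median of −1.79, and none of these markers was called by limma.

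PD-L1 blockade in wild-type mice was compared over 6 against 3 libraries. Here 69 of 77 members were higher with anti-PD-L1 (89.61%, against 42.6% of all genes), with a median of 0.25 while that of all genes was −0.10. By limma 0 passed the adjusted threshold (all genes: 0.242%), and 8 had an unadjusted p under 0.05, all higher (10.39%, against 2.19%). By edgeR and DESeq2 0 passed as well, against 19 and 94 of 11992 genes. At that unadjusted p there were 9 and 11 members, all higher. Of 11992 genes, 347 and 476 were higher at that p. The values did not overlap in 5 members (6.49%, against 1.32%), among them Rpl11, Rpl17, Rpl18 and Rps28. Rpl11, which binds the p53 regulator MDM2 when ribosome assembly fails, was at 27385, 30182 and 29862 with IgG2b. With anti-PD-L1 its lowest, median and highest values were 31354, 38123 and 56012. Its partner Rpl5 was at 10163, 12742 and 9613 with IgG2b and between 8048 and 18945 with anti-PD-L1, which overlapped. The largest increases were Rpl36 (0.63, SE 0.27), Rpl37 (0.62, SE 0.20) and Rpl10a (0.57, SE 0.31), and the largest decreases Rpl39l (−1.95, SE 1.84), Rpl38 (−0.35, SE 0.29) and Rpl15 (−0.18, SE 0.26). The median was 0.27 with the first set alone, 0.11 with the library set as a covariate, 0.064 after quantile normalization and 0.0040 when scaled to the total of the members, and the IgG2b group has no library in the second set. Macrophage markers were below 0 in 12 of 12 genes, with a median of −3.30 (Lyz2 called by limma), as were 7 of 7 genes of naive or memory T cells, with a median of −1.14 (Tcf7 called), and 2 of 2 platelet genes, with a median of −6.33 (Ppbp called). Their part in the members' difference was not tested.

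In Nr2f6-/- mice the members were spread around 0 with blockade over both library sets. The difference was above 0 in 42 and below 0 in 35 (54.55% above, against 47.1% of all genes), with a median of 0.03. By limma 0 passed the adjusted threshold (all genes: 0.325%), and 1 member, Rplp1, had an unadjusted p under 0.05 (1.3%, against 9.7%; 0.49, SE 0.20, adjusted p = 0.373). By edgeR and DESeq2 0 passed, against 36 and 230 of 11992 genes. At that unadjusted p there were 5 and 8 members, against 1209 and 1378 of 11992 genes (10.4% of the members by DESeq2). With the first set alone the median was −0.25, and 25 members (32.5%, against 8.25%) lay lower without overlap. With the library set as a covariate the median was −0.11, and after quantile normalization −0.078. The IgG2b group has no library in the second set. Macrophage markers were below 0 in 12 of 12 genes (median −3.40, Lyz2 and C1qb called by limma) and naive or memory T cell genes in 7 of 7 (median −0.71), and their part in the members' values was not tested. The largest increases over both sets were Rpl36 (0.52, SE 0.27), Rplp1 and Rps18 (0.47, SE 0.24). Rps18 was at 79980 normalized counts in replicate 1 with anti-PD-L1 and at 29004 to 62403 in the others of that group. With IgG2b it was at 33807 to 35370. The largest decreases were Rpl39l (−1.95, SE 1.84), Rpl35 (−0.56, SE 0.51) and Rpl15 (−0.53, SE 0.26). Rpl15 was at 1947, 2787 and 1777 normalized counts with IgG2b and at 1097 to 1751 with anti-PD-L1, without overlap, as 1 of 2 members that lay lower in this way (2.6%, against 3.15%).

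Whether the effect of blockade differed between the genotypes was tested as an interaction over the 4 groups. It was below 0 in 64 of 77 members (83.12%, against 47% of all genes), with a median of −0.20 (all genes: 0.06). By limma, edgeR and DESeq2 0 members passed the adjusted threshold (all genes by limma: 0%, by DESeq2: 76 of 11992). At an unadjusted p under 0.05 there were 3, 3 and 4, each below 0 (3.9% by limma, against 1.88%). By DESeq2 the share was 5.19%, while 340 of 11992 genes were below 0 at that p. The lowest values were Rpl35 (−1.05, SE 0.72), Rps13 (−0.83, SE 0.34) and Rpl28 (−0.78, SE 0.30), and the highest Rplp1 (0.36, SE 0.28), Rpl13a (0.32, SE 0.36) and Rpl4 (0.25, SE 0.34), with adjusted p-values of 0.974 to 0.990 by limma. In the first library set alone, which holds all 4 groups with 3 libraries each, 73 of 77 members were below 0 (94.8%, against 45.8% of all genes), with a median of −0.57. By limma 0 passed the adjusted threshold there, and 30 of 77 had an unadjusted p under 0.05, all below 0 (all genes: 3.08%). Each of these comparisons shares libraries with at least 1 other, so they are not independent of each other.

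A few further members are given for their role. Rps27a, which is made as a fusion with ubiquitin, was at 24353, 24543 and 26064 normalized counts in wild type with IgG2b and at 18568, 19376 and 23514 in Nr2f6-/- with IgG2b, without overlap. With anti-PD-L1 it was at 16288 to 38018 in wild type and at 11258 to 39195 in Nr2f6-/-, where 13119, 11258 and 13673 came from the first set. Rps4x, whose gene lies on the X chromosome with those of Rpl10, Rpl36a and Rpl39, ranged from 7075 to 19653 over all libraries. Rps27l, a variant copy of Rps27 known as a target of p53, ranged from 2679 to 6151. Rpl13 had its 2 highest values in wild-type replicates 1 and 2 with anti-PD-L1, 26389 and 22562, and lay between 12317 and 17029 in all other libraries.

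Genes around the ribosome were counted in lists made by function. Of 19 other translation genes with TOP mRNAs, among them elongation factors and Tpt1, 13 were lower in Nr2f6-/- TILs under anti-PD-L1, with a median of −0.09, and 0 passed the adjusted threshold by limma. In the first library set 16 of 19 were lower, with a median of −0.39, and in the second 5 of 19, with a median of 0.12. In the interaction of genotype and set 18 of 19 were above 0, with a median of 0.63. Eef1a1, which brings aminoacyl-tRNA to the ribosome, was at 481.7, 398.5 and 352.3 normalized counts in the first 3 Nr2f6-/- libraries and at 1082, 2055 and 1817 in the first 3 wild-type ones with anti-PD-L1. Its difference over both sets was −0.97 (SE 0.35), with an adjusted p of 0.347 by limma. Of the last 300 bases of its transcript, 36% overlapped the gene Gm26377 on the same strand, so its level is uncertain. Another elongation factor, Eef1b2, overlapped between the genotypes in the first set with anti-PD-L1. It was at 33840, 43868 and 69507 in Nr2f6-/- and at 39406, 70515 and 48966 in wild type.

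For 75 proteins of the mitochondrial ribosome, the median genotype difference under anti-PD-L1 was −0.26 in the first and −0.12 in the second set, and 1 (Mrpl45) passed the adjusted threshold by limma over both sets, lower in Nr2f6-/-. For 25 genes of ribosome biogenesis, the factors that assemble subunits in the nucleolus, these medians were −0.15 and −0.10, and 0 passed by limma. For 12 genes of mTORC1 signalling and TOP control they were 0.09 and 0.33, and 0 passed. Pseudogene rows of ribosomal proteins took 0.0653% to 0.139% of the reads.

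When each library was scaled to its total of reads on the members, which shows the composition within the group, the genotype difference under anti-PD-L1 had a median of −0.03 and 4 members at an unadjusted p under 0.05, all lower (5.19%, against 1.97%), and the median of all genes stood at 0.26. In the first set 2 members passed the adjusted threshold on that scale (2.6%), Rpl35 and Rpsa, both lower. Of all 11992 genes 420 passed (3.5%), of which 407 were higher and 13 lower.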

How the data were processed

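CD3+ TILs of 18 mouse samples were profiled by 3′ tag sequencing. As described by the authors, reads were trimmed with Cutadapt and Trimmomatic, reads under 22 nt were removed, the rest was aligned to mm10 with STAR and then Bowtie2, the primary alignment of reads with several hits was kept, and HTSeq-count and DESeq2 followed. Annotation, strand setting and versions are not given in the sources used here. The deposited signal values are normalized counts, that is, counts divided by DESeq2 size factors (0.8231 to 1.217). Division by the step of each column gave whole reads for 100% of values (tolerance 0.01).

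Genes with a mean of at least 10 (11992) were tested on log2(value + 1) with limma 3.58.1 (R 4.3.3), with 4 group means over 18 samples and Benjamini-Hochberg adjustment at 0.05. The log2 fold change understates the change of low genes. The set comparisons used the 12 anti-PD-L1 samples. edgeR 4.0.16 and DESeq2 1.42.0 on the recovered reads, other scalings, pseudocounts and filters, single library sets and omission of each replicate were alternatives. Scripts were tested on simulated data. Named members were those past the threshold, the 3 largest increases and decreases per comparison, the 5 highest and lowest levels, the 3 largest and smallest SDs within groups, and members chosen for their role. Members outside this rule were named after their values were seen. Results of 3 single members are not reported here and their points are not plotted, while counts and medians cover all 77. The members and lists were chosen with earlier results of these data known. The study counts its sequenced samples in mice, with fewer anti-PD-L1 samples than the labels list, and the labels tie no library to a mouse, so p-values measure the spread between these samples. Genes with near-identical copies or antisense partners are uncertain.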

Additional observations from a re-analysis of the deposited data

Results flagged for a closer look

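In groups of 6 libraries, the highest and lowest values were checked by Dixon's rule. A value was singled out when its gap to the nearest other, relative to the whole range, exceeded the critical value. This was met in 5 of 64 checks. The members checked were partly picked for large differences in these data, and the checks share libraries. The number met can therefore not be set against a rate from chance. Rps26 was at 127660 normalized counts in Nr2f6-/- replicate 1 with anti-PD-L1, while the other 5 lay between 31476 and 46055. In the same library the ratio of small to large subunit reads was 1.127, and 0.834 to 0.911 in the others of its group.

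The remaining 3 were single members in wild-type libraries with anti-PD-L1. Rpl11 was at 56012 in replicate 2 and at 31354 to 40052 in the others. Rps19, a small subunit protein mutated in Diamond-Blackfan anemia, was at 47015 in the same replicate and at 22861 to 30049 in the others. Rpl35 was at 7291 in replicate 3 and at 2334 to 4095 in the others.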

How the results depend on the processing

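The median difference of the members moved by less than the spread of their mean (SD 0.277 on the log2 scale) in 184 of 193 settings, the number of members called stayed within 1.5 times or on its side in 177 of 193, and the share of reads moved by less than its SD in 27 of 30. That SD is larger than 5 of the 7 main medians, so a median within it may still vanish or change sign. Scaled to the total of the members, the median was 0.0040 for anti-PD-L1 in wild type, −0.060 in Nr2f6-/-, 0.029 for the genotypes under IgG2b and −0.018 between sets. After quantile normalization it was 0.064 for anti-PD-L1 in wild type and −0.078 in Nr2f6-/-. The cause of the exceptions below was not tested.

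The genotype median under anti-PD-L1 was −0.033 when scaled to the total of the members, −0.64 with 4 calls in the first library set and 0.030 in the second. In the first set alone the median was −0.25 for anti-PD-L1 in Nr2f6-/- and −0.57 for the interaction. The set comparison gave 3 calls after quantile normalization (all genes: 15) and 8 by DESeq2 (all genes: 135). Its medians were −0.073 in wild type and 0.55 in Nr2f6-/-. The interaction of set and genotype had a median of 0.020 scaled to the total of the members and 12 calls by DESeq2. The first-set genotype comparison gave 15 calls after quantile normalization, 2 with a median of −0.037 scaled to the members, 0 with only the groups compared, 14 by edgeR and 37 by DESeq2. That scaling moved the median of all genes to 0.26 in the genotype comparison and −0.68 in the interaction of set and genotype. Without the 10 highest other genes in the denominator, the share was 13.82% in Nr2f6-/- and 15.4% in wild type with IgG2b and 17.28% in wild type with anti-PD-L1.

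With each replicate left out, the median ranged from −0.15 to −0.05 for the genotypes under IgG2b, −0.37 to −0.22 under anti-PD-L1 and −0.83 to −0.46 in the first set. It ranged from −0.06 to 0.10 for anti-PD-L1 in Nr2f6-/-, 0.17 to 0.33 in wild type, −0.33 to −0.13 for their difference, 0.17 to 0.37 for the sets and 0.46 to 0.85 for set and genotype. Calls ranged from 0 to 1 under anti-PD-L1 (1 without Nr2f6-/- replicate 5), 1 to 27 in the first set, 0 to 5 for set and genotype (5 without wild-type replicate 1) and 0 to 0 elsewhere. Without Nr2f6-/- replicate 5, 26 of 11992 genes were called.

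Of the named members, some changed sign. Rpl36 was at −0.025 for anti-PD-L1 in Nr2f6-/- in the first set. Rpl39l was at 0.76 by edgeR and 0.75 by DESeq2 for anti-PD-L1 in wild type. In the interaction, Rpl13a was at −0.18 and Rpl4 at −0.33 in the first set. For the genotypes under anti-PD-L1, Rpl4 was at −0.48 in the first set and between −0.13 and 0.22 with a replicate left out, Rps26 between −0.19 (without Nr2f6-/- replicate 1) and 0.22, and Rpl35 at 0.26 in the second set. Rpl35 was at −0.14 between sets in wild type. For set and genotype, Rps19 ranged from −0.34 to 0.19 and Rps26 from −0.57 to 0.44 with a replicate left out.

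Replicate numbers did not pair the samples: the deviations of 21 same-numbered pairs correlated at −0.0292 to 0.0366. A fit with a replicate block called 0 members in each of the 5 comparisons of genotype and treatment, with medians of −0.31 and −0.10 for the genotypes under anti-PD-L1 and IgG2b and −0.20 for the interaction, as without it. For anti-PD-L1 the block moved the median from 0.25 to 0.11 in wild type and turned it from 0.027 to −0.11 in Nr2f6-/-.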

Other observations

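Copies of ribosomal proteins outside the symbol rule were also measured. The 4 tested had genotype differences under anti-PD-L1 with a median of −0.52 in the first library set, 4 of 4 lower, and of 0.11 in the second, where 1 of 4 was lower. The pseudogene rows, 12 of which were tested, had medians of −0.06 and 0.30.

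Members with a pyrimidine run of at least 8 bases near the start, and those without, had medians for the change of the genotype difference between library sets of 0.64 and 0.66.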
